A study of Mus musculus with 7 samples.

Results

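The heat shock chaperones considered here are Hsp90aa1, Hsp90ab1, Hspa1a, Hspa1b, Hspa8, Hsph1, Dnajb1, Dnaja1, Hspb1 and Hspd1, 10 of the 51426 genes in the deposited liver tables. They were taken by name, as Hsp90aa1 and chaperones it is usually grouped with, with no limit on any measured value, at a time when earlier results of these data, that of Hsp90aa1 among them, were known. All 10 passed the filter on low counts that left 14754 genes for testing. Of these genes 9 encode chaperones of the cytosol and nucleus, while the product of Hspd1, HSP60, folds proteins in the mitochondrial matrix.

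Liver RNA was sequenced from 3 WT and 4 TET1 KO male mice, all C57BL/6J by the labels and all fed a high fat diet (HFD) for 16 weeks from 8 weeks of age. TET1 oxidizes 5-methylcytosine in DNA, and the knockout was in the whole body, so that a difference in the liver can start in any tissue. By the study's description the mice were TET1-/- and TET1wt/wt, bred from B6;129S4-Tet1tm1.1Jae/J heterozygotes, and not the line made with a beta-actin Cre. Livers of mice on normal chow were not analysed here. The question is how the transcripts of these chaperones differed between TET1 KO and WT livers on the HFD.

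Chaperones bind unfolded or partly folded proteins. HSP70 proteins take up short unfolded stretches, are brought to them by J-domain proteins, and release them again with the help of nucleotide exchange factors such as HSP110. HSP90 then completes the folding of particular clients, among them steroid receptors and kinases, and small heat shock proteins hold unfolded proteins in a form that can be refolded. Some of these genes are expressed at a high level in every cell, and others are induced by heat shock factor 1 (HSF1), which binds inverted repeats of the unit GAA (heat shock elements) in their promoters.

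The stretches of the promoters that carry such elements are shown here because they are the sequence feature by which the inducible chaperones are usually grouped. RefSeq promoter windows (GRCm38.p6, 250 bases before to 50 after a start site) were found for 7 of the 10 genes, and Hsp90aa1, Hsp90ab1 and Hspa8 had no entry. Each window was searched on both strands for a pair of inverted units, GAANNTTC or TTCNNGAA, and for 3 units, GAANNTTCNNGAA or TTCNNGAANNTTC, where every match to 3 units also holds pairs. Of all 32851 windows, 15.1% held a pair and 0.603% held 3 units, and of the 27025 genes with a window the shares were 17% and 0.662%. A pair was found for 6 of the 7 genes and 3 units for 2 of them, Hspd1 and Hsph1, whereas neither Dnajb1 window held a match. In the sequences, written 5′ to 3′ on the strand of the gene, capitals mark the matched units.
Hspd1: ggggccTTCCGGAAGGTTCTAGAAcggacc
Hspe1: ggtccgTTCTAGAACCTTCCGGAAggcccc
Hsph1: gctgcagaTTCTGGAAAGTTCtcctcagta
Hspa1a: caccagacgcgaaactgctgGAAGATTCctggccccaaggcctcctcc
Hspa1b: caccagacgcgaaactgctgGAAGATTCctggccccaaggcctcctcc
Hspb1: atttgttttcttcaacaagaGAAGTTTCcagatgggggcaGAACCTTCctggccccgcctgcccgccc
Dnaja1: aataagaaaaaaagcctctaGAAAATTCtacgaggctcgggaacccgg
The stretches of Hspd1 and of its neighbour Hspe1, which encodes HSP10, are the same 30 bases of chr1:55088053-55088082 read on opposite strands, since the genes overlap at their starts and run in opposite directions. For Hspd1 the stretch lies between its annotated start sites. The Hsph1 stretch (chr5:149636279-149636308, minus strand) lies after the start site, and a further pair, TTCTCGAA at chr5:149636362-149636369, lies before it. Those of Hspa1a (chr17:34972233-34972280, minus strand) and Hspa1b (chr17:34959315-34959362, minus strand) are identical, and over the 250 bases before their start sites the promoters differ at 3 bases. The Hspb1 (chr5:135887782-135887849, plus strand) and Dnaja1 (chr4:40722324-40722371, plus strand) stretches lie before the start sites. A match describes the letters and does not show that HSF1 binds there.

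Library sizes ran from 15005277 to 22746138 counts and overlapped between the genotypes, so that 1 CPM (CPM being counts scaled to a common library size by TMM) stands for 14.2 to 24.1 counts. Transcripts of the mitochondrial genome took 7.25% to 9.98% of the counts in WT and 8.78% to 14.4% in TET1 KO livers, with the highest share in TET1 KO replicate 1. Hepatocyte markers summed to between 77120 and 100100 CPM in the 7 livers. Of 54 tested marker genes of 8 cell types, edgeR called none at an adjusted p under 0.05, DESeq2 called 6 (11.1%, against 9.02% of all genes) and 12 had an unadjusted p under 0.05 (22.2%, against 26.3%). The summed cholangiocyte markers did not overlap, at 29.7 to 37.9 CPM in WT and 46.2 to 68.0 CPM in TET1 KO livers. Summed erythroid markers were 777 to 870 CPM in WT and 219, 488, 427 and 1113 CPM in TET1 KO replicates 1 to 4. Tet1 itself had 1 to 4 counts in every library of either genotype, so its counts could not check the labels.

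Hsp90aa1 was the member of the family with the largest difference between the genotypes, and the other 9 genes lay closer to no change. In edgeR's quasi-likelihood test none of the 10 chaperones differed at an adjusted p under 0.05, where 298 of the 14754 tested genes (2.02%) did, 129 higher (0.874%) and 169 lower (1.15%) in TET1 KO livers. At an unadjusted p under 0.05 the number was 1 of 10, Hsp90aa1, against 26.3% of all tested genes. DESeq2 called 1 of the 10, again Hsp90aa1, against 9.02% of the genes it tested. The groups of livers did not overlap for 1 of the 10 genes, compared with 22.5% of all tested genes. The fitted log2 fold change was above 0 for 7 genes and below 0 for 3, and its median over the 10 genes was 0.09, beside 0.01 over all tested genes. In whole liver tissue, fewer cells of a type and less RNA per cell cannot be told apart.

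**Figure D1:**
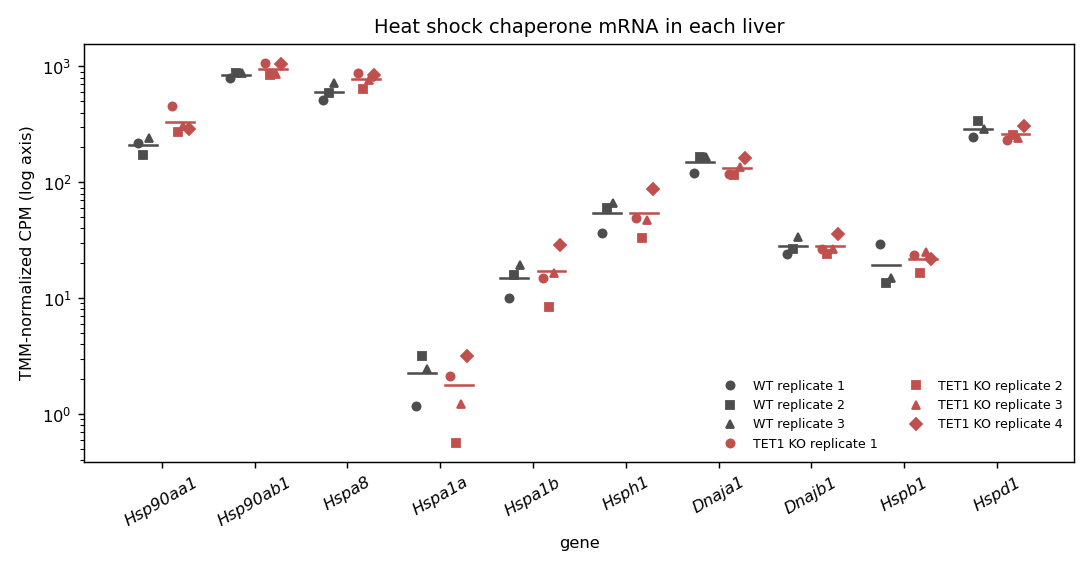
TMM-normalized CPM (log axis) of each of the 10 genes in the 3 WT (grey) and 4 TET1 KO livers (red), with a horizontal line at the mean of each group and a symbol for each replicate. Hsp90aa1 is the gene whose red points all lie above its grey points.

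Hsp90aa1 (ENSMUSG00000021270, chr12:110691036-110696395 in GRCm38.p6) encodes HSP90 alpha, the stress-inducible form of cytosolic HSP90. Its level was 217, 171 and 239 CPM in WT replicates 1 to 3 and 456, 274, 305 and 291 CPM in TET1 KO replicates 1 to 4. All 4 TET1 KO livers exceeded the highest WT liver, and TET1 KO replicate 1 stood well above the other three. The means were 209 ± 34.9 CPM (SD, n = 3) for WT and 332 ± 84.2 CPM (SD, n = 4) for TET1 KO, a 1.59-fold difference (95% interval 1.16 to 2.16). On the log2 scale the fold change was 0.67 (standard error, SE, 0.20), with an adjusted p of 0.0884 from edgeR's quasi-likelihood test, and 1226 genes had a smaller p. An exact two-sided permutation test over the 35 splits of the livers gave p = 0.0286, the smallest p that 3 against 4 livers allow. The call depended on the test, and DESeq2 gave an adjusted p of 0.0281. Without TET1 KO replicate 1, which also had the highest mitochondrial share, the log2 fold change was 0.47, and without WT replicate 2 it was 0.53, with adjusted p values of 0.121 and 0.344 from edgeR. The part of the mitochondrial share in this difference was not tested.

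Hsp90ab1 (ENSMUSG00000023944, chr17:45567778-45573261) encodes HSP90 beta, the form made constitutively in most cells. Its levels were 787, 868 and 884 CPM in WT and 1070, 851, 853 and 1051 CPM in TET1 KO livers. TET1 KO replicates 1 and 4 were above all WT livers, but the other two lay among them. The log2 fold change was 0.18 (SE 0.17, adjusted p = 0.519, edgeR), with a 95% interval from -0.20 to 0.55, and it was 0.12 without WT replicate 1.

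Because the 2 cytosolic HSP90 genes were measured in the same libraries, their ratio within each liver is free of differences in depth. Hsp90aa1 stood at 0.276, 0.197 and 0.270 of the Hsp90ab1 CPM in WT and at 0.427, 0.322, 0.358 and 0.277 in TET1 KO livers. The groups did not overlap, though TET1 KO replicate 4 and WT replicate 1 were almost level. The difference of the log2 ratio was 0.48, higher in TET1 KO livers, with p = 0.0571 in the exact two-sided permutation test and 0.214 after adjustment over the 6 ratios compared here. Set against Hsp90b1, the HSP90 of the endoplasmic reticulum, Hsp90aa1 gave ratios of 0.273, 0.206 and 0.211 in WT and 0.628, 0.223, 0.321 and 0.328 in TET1 KO livers. Here TET1 KO replicate 2 lay within the WT range, and the difference of 0.61 on the log2 scale did not pass the test (exact permutation p = 0.143, adjusted p = 0.214). It was 0.33 without TET1 KO replicate 1 and 0.83 without TET1 KO replicate 2. Hsp90b1 itself had a log2 fold change of 0.044 (adjusted p = 0.912, edgeR), and this turned to -0.050 when libraries were scaled by size only.

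Hspa8 (ENSMUSG00000015656, chr9:40801276-40805202) encodes HSC70, the constitutive cytosolic HSP70, and holds the small nucleolar RNA genes Snord14c, Snord14d and Snord14e in its span. Its levels were 508, 595 and 718 CPM in WT and 885, 639, 767 and 848 CPM in TET1 KO livers. TET1 KO replicates 1, 3 and 4 lay above all WT livers and TET1 KO replicate 2 lay below WT replicate 3. The 1.29-fold difference (95% interval 0.977 to 1.71) had a log2 value of 0.37 (SE 0.18) and an adjusted p of 0.221 from edgeR. Hspa8 was the chaperone with the second smallest p of the 10.

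Hspa1a (ENSMUSG00000091971, chr17:34969359-34972156) and Hspa1b (ENSMUSG00000090877, chr17:34956429-34959238) encode nearly identical inducible HSP70 proteins and lie close together. In the annotated transcripts (GENCODE M1) their coding sequences were 99.43% identical, and 82.31% of the 50-base windows of the Hspa1a coding sequence occurred unchanged in Hspa1b. Over the whole transcripts this share was 59.44%. Reads from such windows cannot be assigned to either copy, so the split between the copies is uncertain. Whether reads that match both copies were counted at all is not given in the sources used here, and if they were left out, the levels of both copies and of their sum are too low.

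Hspa1b measured 10.04, 15.9 and 19.3 CPM in WT and 14.9, 8.31, 16.5 and 28.7 CPM in TET1 KO livers. The highest and the lowest liver were both TET1 KO, replicates 4 and 2. Hspa1a was measured at low counts, with 24, 76 and 44 counts in WT and 34, 8, 24 and 68 counts in TET1 KO livers, where TET1 KO replicate 2 was the lowest and WT replicate 2 and TET1 KO replicate 4 were level as the highest, at 3.15 CPM each. The log2 fold changes were 0.19 for Hspa1b (SE 0.35, adjusted p = 0.753) and -0.32 for Hspa1a (SE 0.48, adjusted p = 0.690), both from edgeR. With the counts of both copies added, the log2 fold change was 0.13 (adjusted p = 0.840, edgeR). The intervals are wide, from -0.58 to 0.96 for Hspa1b and from -1.37 to 0.73 for Hspa1a, so that differences of either sign remain possible at this number of livers.

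Relative to the constitutive Hspa8, the 2 inducible copies together reached 0.0221, 0.0320 and 0.0302 in WT and 0.0193, 0.0139, 0.0231 and 0.0375 in TET1 KO livers. Of the TET1 KO livers 2 lay below all WT livers and TET1 KO replicate 4 lay above them. The log2 difference was -0.34, with an exact permutation p of 0.429 (adjusted p = 0.429 over the 6 ratios), and it was -0.12 without TET1 KO replicate 2 and -0.60 without TET1 KO replicate 4.

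Hsph1 (ENSMUSG00000029657, chr5:149616843-149636498) encodes HSP105, an HSP110 protein that exchanges nucleotide on HSP70. It measured 36.7, 59.7 and 66.6 CPM in WT and 49.1, 33.2, 47.4 and 87.6 CPM in TET1 KO livers. The group means were 54.3 ± 15.7 CPM (SD, n = 3) and 54.3 ± 23.3 CPM (SD, n = 4), a log2 fold change of 0.00 (SE 0.30, adjusted p = 0.998, edgeR), and the range of the TET1 KO livers enclosed that of the WT livers. Its ratio to Hspa8 was 0.0722, 0.1004 and 0.0928 in WT and 0.0555, 0.0519, 0.0618 and 0.103 in TET1 KO livers. TET1 KO replicates 1 to 3 were below all WT livers and TET1 KO replicate 4 was above them, so the log2 difference of -0.42 did not pass the test (exact permutation p = 0.229, adjusted p = 0.275). Without TET1 KO replicate 4 it was -0.64.

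Of the J-domain genes, Dnaja1 (ENSMUSG00000028410, chr4:40722468-40734965) encodes a largely constitutive partner of HSC70 and overlaps Gm6297 and Mir207. Dnaja1 measured 121, 164 and 165 CPM in WT and 118, 115, 137 and 162 CPM in TET1 KO livers. The fitted difference was -0.18 on the log2 scale (SE 0.17, adjusted p = 0.513, edgeR), with TET1 KO replicates 1 and 2 below every WT liver and the rest mixed. It was -0.32 without WT replicate 1 and -0.11 without WT replicate 2.

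Dnajb1 (ENSMUSG00000005483, chr8:83608175-83612653) encodes HSP40, the inducible J-domain partner of HSP70. Its levels were 23.9, 26.8 and 33.8 CPM in WT and 26.7, 24.0, 26.7 and 35.6 CPM in TET1 KO livers, and the groups covered almost the same range. The log2 fold change was 0.01 (SE 0.17, adjusted p = 0.988, edgeR), with a 95% interval from -0.37 to 0.38, and its sign changed with the scaling of the libraries. The ratio of Dnajb1 to Dnaja1 was 0.198, 0.163 and 0.204 in WT and 0.226, 0.209, 0.195 and 0.2195 in TET1 KO livers, which overlapped (log2 difference 0.18, exact permutation p = 0.143, adjusted p = 0.214), and the difference was 0.076 without WT replicate 2.

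Hspb1 (ENSMUSG00000004951, chr5:135887919-135889563) encodes HSP25, a small heat shock protein that keeps unfolded proteins soluble. It measured 29.2, 13.4 and 15.0 CPM in WT and 23.7, 16.5, 24.8 and 21.7 CPM in TET1 KO livers. WT replicate 1 was the highest of the 7 livers, while WT replicates 2 and 3 were the lowest. The log2 fold change of 0.17 (SE 0.26, adjusted p = 0.689, edgeR) therefore moved with single livers, to 0.60 without WT replicate 1 (adjusted p = 0.0895) and to -0.039 without WT replicate 2.

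Hspd1 (ENSMUSG00000025980, chr1:55077833-55088243) encodes the mitochondrial HSP60, which works together with the HSP10 encoded by Hspe1. Hspd1 measured 246, 337 and 288 CPM in WT and 233, 256, 239 and 307 CPM in TET1 KO livers, and the groups overlapped (fold change -0.17 on the log2 scale, SE 0.16, adjusted p = 0.516, edgeR). This difference was -0.28 without WT replicate 1 and -0.050 without WT replicate 2. Hspe1 measured 87.8, 73.7 and 84.3 CPM in WT and 120, 105, 98.0 and 107 CPM in TET1 KO livers, where all TET1 KO livers lay above the WT livers but the log2 fold change of 0.39 (SE 0.13) had an adjusted p of 0.0990 from edgeR.

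The ratio of Hspd1 to Hspe1 was 2.80, 4.58 and 3.42 in WT and 1.95, 2.45, 2.44 and 2.87 in TET1 KO livers. Only TET1 KO replicate 4 reached into the WT range, and the log2 difference of -0.55 did not pass the test (exact permutation p = 0.0857, adjusted p = 0.214) and was -0.36 without WT replicate 2. The genes overlap by 96 bp at their starts, and the reads of this stretch can be told apart only if the strand was used in counting, which the sources do not state. Hspe1 has a union exon length of 1474 bases and Hspd1 of 2642 bases. The median log2 fold change was 0.15 in the shortest of 10 equal classes of tested genes by exon length and between -0.03 and 0.03 in the other 9 classes. Neither gene is in the shortest class, which ends at 1121 bases. With each liver's values centred within the classes, the log2 difference of the Hspd1 to Hspe1 ratio was -0.50 (exact permutation p = 0.0857). Among the 10 chaperones only Hspb1, with 1031 bases, is in the shortest class. With its values centred in the same way, the log2 difference of Hspb1 was 0.08 (exact permutation p = 0.771).

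**Figure D2:**
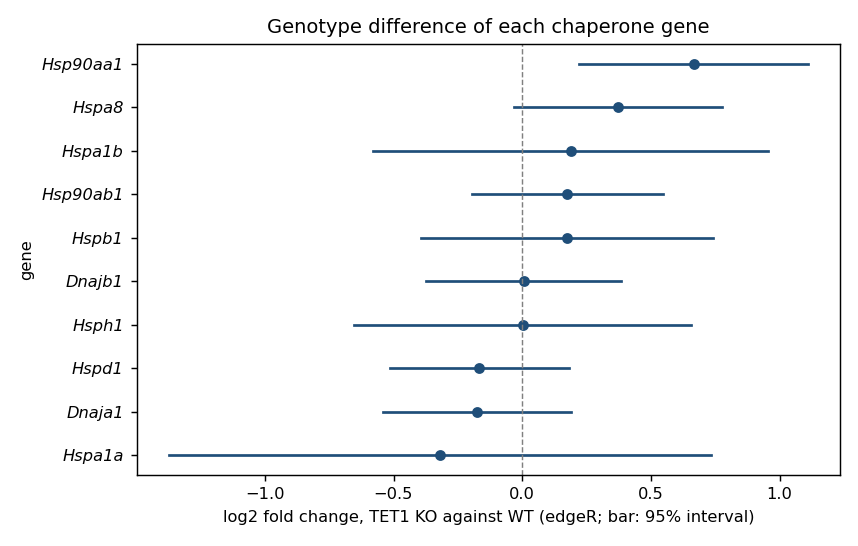
Log2 fold change of each gene in TET1 KO against WT livers (edgeR, points) with its 95% interval (bars) and no change as the dashed line. The interval of Hsp90aa1, from 0.22 to 1.11, is unadjusted and is the only one of the 10 that leaves out 0.

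Levels of different genes were compared per kilobase of union exon length (GENCODE M1). This length joins the exons of all annotated transcripts of a gene, so it can exceed that of its main transcript. For Hspa8 it was 4156 bases, above the RefSeq span of 3927 bases. The longest were 8629 bases for Dnaja1 and 7042 bases for Hsph1. Where the length is too large the level per kilobase is too low, and the order below depends on these lengths. In WT livers the mean level per kilobase was highest for Hsp90ab1, at 282 CPM per kb, followed by Hspa8 at 146, Hspd1 at 110 and Hsp90aa1 at 53.2 CPM per kb. Below these came Hspb1 at 18.7, Dnaja1 at 17.4, Dnajb1 at 11.4, Hsph1 at 7.72, Hspa1b at 5.38 and Hspa1a at 0.770 CPM per kb. Of the 9 pairs of neighbours in this order, 4 were closer in their means than the wider of their own ranges over WT livers, namely Hspa8 and Hspd1, Hspb1 and Dnaja1, Dnajb1 and Hsph1, and Hsph1 and Hspa1b. Hspb1 exceeded Dnaja1 in only 1 of 3 WT livers. The means of TET1 KO livers gave the same order, where the same held for 5 of 9 pairs, all those from Hspb1 down to Hspa1b and the pair of Hspd1 and Hsp90aa1. These last stood at 97.95 and 84.4 CPM per kb, and in TET1 KO replicate 1 Hsp90aa1 was the higher, at 116 against 88.2 CPM per kb. Per kilobase, the mean level of the constitutive Hsp90ab1 exceeded that of Hsp90aa1, and that of Hspa8 exceeded both inducible HSP70 copies as counted, in either genotype. The levels of Hspa1a and Hspa1b may be too low for want of reads that match both copies.

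**Figure D3:**
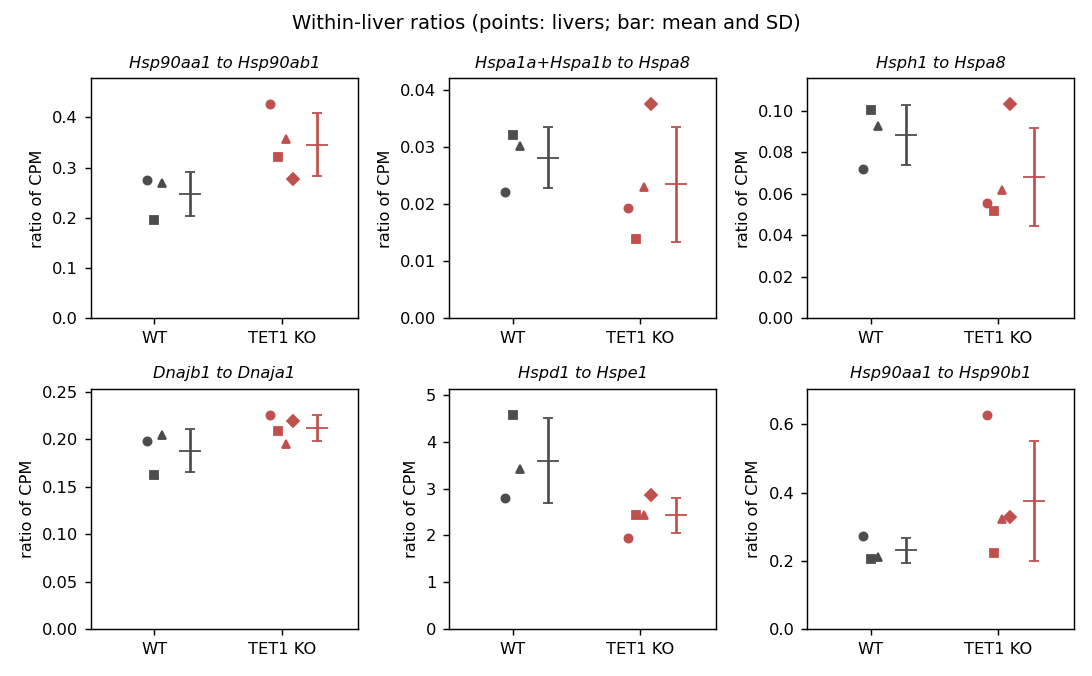
Ratio of CPM between related genes within each liver in the 3 WT and 4 TET1 KO livers, with the mean and SD of each group beside the points. Only for Hsp90aa1 to Hsp90ab1 do the groups not overlap, by a margin of 0.277 in TET1 KO replicate 4 to 0.276 in WT replicate 1.

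The genes also differed in how much they varied between livers of the same genotype. The SD of log2 CPM within genotypes was 0.88 for Hspa1a, 0.64 for Hspa1b and 0.53 for Hsph1, which placed them at the 97.5th, 91.8th and 86.7th percentile of all tested genes, whose median was 0.26. For Hsp90ab1 it was 0.15, at the 16.4th percentile. From the lowest to the highest TET1 KO liver, Hspa1b spanned 3.45-fold and Hsph1 2.64-fold, compared with 1.26-fold for Hsp90ab1 and 1.38-fold for Hspa8. Both wide ranges ran from TET1 KO replicate 2 to TET1 KO replicate 4.

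To describe which chaperones shared a profile over the livers, log2 CPM values were centred on the mean of each gene and the root mean square difference between a pair of genes was taken over the 7 livers. Among the 45 pairs of chaperones the smallest differences were 0.12 for Dnaja1 and Hspd1, 0.14 for Dnajb1 and Dnaja1, 0.15 for Hspa1b and Hsph1, and 0.15 for Hsp90ab1 and Hspa8. For genes that vary little, a small difference is set partly by their small spread. Hspa1b and Hsph1 vary widely, and their likeness was therefore set against all other genes: of the 14753 other tested genes, Hspa1b was the second nearest to Hsph1 and Bag3 the fourth, at differences of 0.15 and 0.20, where the median gene stood at 0.54. Hsph1 was made the anchor after values had been seen, so the near rank of Hspa1b follows partly from that choice. Bag3 encodes an HSP70 nucleotide exchange factor that HSF1 also induces. It measured 27.5, 40.9 and 51.9 CPM in WT and 30.9, 23.0, 32.1 and 43.3 CPM in TET1 KO livers, and its log2 fold change of -0.31 did not pass the test (adjusted p = 0.417, edgeR) and moved to -0.53 without WT replicate 1 and to -0.10 without WT replicate 3. In nearness to Hsph1, Dnajb1 ranked 38th, Dnaja1 52nd, Hspd1 398th, Hsp90ab1 740th, Hspa8 796th and Hspa1a 2300th, while Hsp90aa1 ranked 10271st and Hspb1 11311th. The other genes among the 5 nearest to Hsph1 were Pak1, Gm38303 and Evpl, all at low counts with at most 53 in any library.

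**Figure D4:**
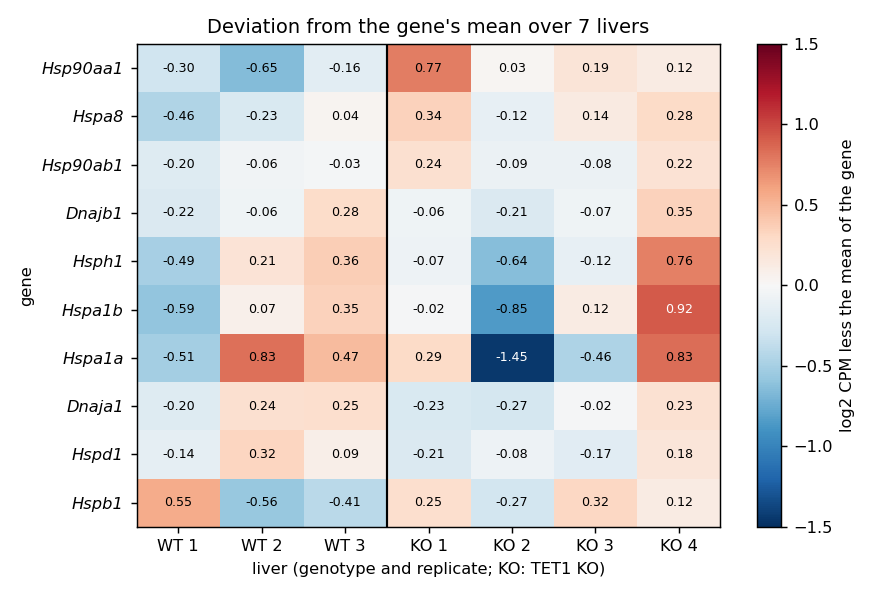
Log2 CPM of each gene in each liver less the gene's mean over the 7 livers, with red above and blue below the mean. Hsph1 and Hspa1b are lowest in TET1 KO replicate 2 and highest in TET1 KO replicate 4, while Hsp90aa1 is highest in TET1 KO replicate 1 and lowest in WT replicate 2.

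Hsph1, Hspa1b and Bag3 did not sort by genotype. All of them had the same 2 highest livers, TET1 KO replicate 4 and WT replicate 3, and the same 2 lowest, TET1 KO replicate 2 and WT replicate 1. Summed macrophage markers were highest in WT replicate 3 and TET1 KO replicate 4 as well, at 341 and 340 CPM against 157 to 262 CPM in the other livers. Their low end differed, with 262 CPM in TET1 KO replicate 2 and 236 CPM in WT replicate 1. The lowest sums were 157 and 182 CPM, in TET1 KO replicates 1 and 3. TET1 KO replicate 2 was the smallest library. The part of either in this profile was not tested.

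Hsp90aa1 had another profile, highest in TET1 KO replicate 1 and lowest in WT replicate 2. These were also the extremes of the first principal component of all tested genes (57.1 and -56.9), which held 48.7% of the variance. The part of this axis in the profile was not tested. Its nearest genes were Prr3, Gm8430, Ankhd1, Hnrnph3 and Hmgn5, at root mean square differences of 0.04 to 0.09 over the 7 livers, where the median gene stood at 0.49. None of these is a chaperone. The nearest chaperone among the 10 was Hspa8, at 0.26 and rank 1514, followed by Hsp90ab1 at rank 2949. The HSF1-inducible genes were spread over the ranking, with Hspe1 818th, Hspb1 5141st, Dnajb1 6327th, Hsph1 10765th, Bag3 10793rd, Hspa1b 11176th and Hspa1a 13753rd. Dnaja1 and Hspd1 ranked 9120th and 9164th. The measure grows with the spread of a gene, so the far ranks of widely varying genes such as Hspa1a are set partly by their spread. The same 5 genes were nearest when libraries were scaled by size only. All 5 were higher in each TET1 KO liver than in each WT liver, with log2 fold changes from 0.57 for Hmgn5 to 0.64 for Hnrnph3 and adjusted p values from 0.0795 to 0.114 in edgeR, so that none was called. DESeq2 called 2 of them, Gm8430 (adjusted p = 0.0275) and Hmgn5 (adjusted p = 0.0411). They were picked for a profile like that of Hsp90aa1, and their separation by genotype follows from that choice.

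**Figure D5:**
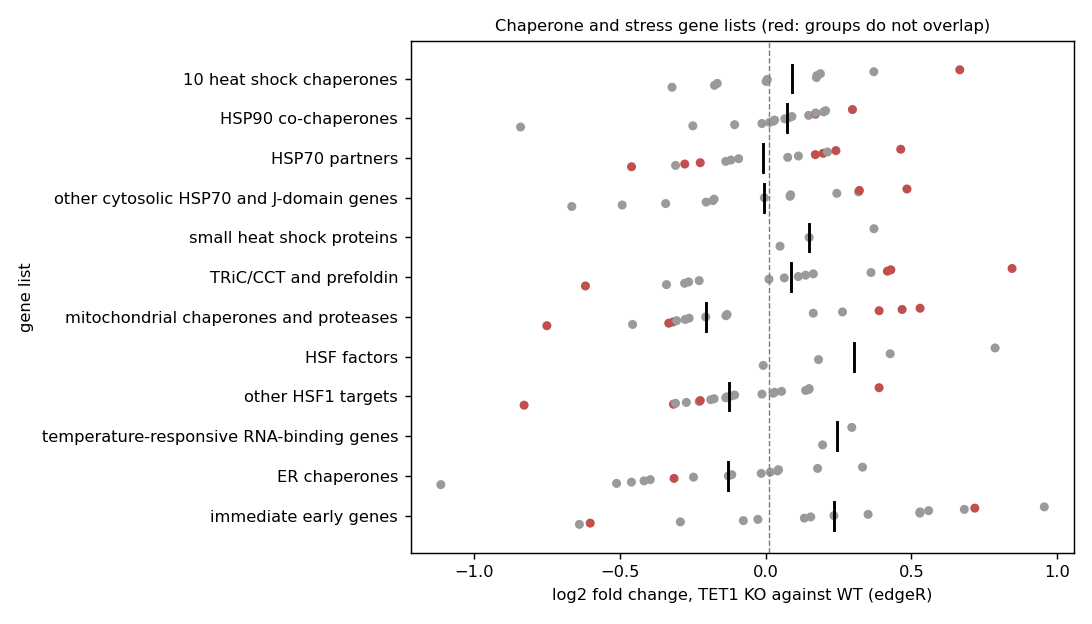
Log2 fold change of every tested gene of the 10 chaperones and of 11 related lists, with the median of each list as a black bar and that of all tested genes as the dashed line. Red points are genes whose WT and TET1 KO livers do not overlap, and none of the points shown passed an adjusted p of 0.05 in edgeR.

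The partners, regulators and organellar counterparts of these chaperones were read from 11 lists of known genes. Of 119 tested genes in the lists, each counted once, edgeR called none at an adjusted p under 0.05 (2.02% of all tested genes were called) and DESeq2 called 7, or 5.88% against 9.02% of all genes it tested. These 7 were Stub1, Pfdn6, Clpp, Clpx, Hmox1, Dnajb9 and Jun. At an unadjusted p under 0.05 there were 14 higher genes, 11.8% of those tested in the lists against 13.6% of all tested genes, and 9 lower genes, 7.56% against 12.7%. The groups did not overlap for 15 higher genes, 12.6% against 11.7% of all, and for 11 lower genes, 9.24% against 10.8% of all. The lists therefore held no larger share of such genes than the liver transcriptome as a whole, except by about 1 percentage point for the higher genes without overlap.

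Among 16 co-chaperones of HSP90, 12 had a log2 fold change above 0 and the median was 0.07. The adaptor Stip1, the activator Ahsa1 and the kinase adaptor Cdc37 stood at 0.03 (-0.059 with libraries scaled by size only), -0.11 and -0.25, and Sugt1 at 0.30 (adjusted p = 0.180, edgeR). Fkbp5, a glucocorticoid-induced immunophilin, had the largest difference of the list at -0.84 (adjusted p = 0.1997), with 22.4 to 39.9 CPM in WT and 8.85 to 29.7 CPM in TET1 KO livers, which overlapped.

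Of 14 partners of HSP70, 7 were above and 7 below 0, with a median of -0.01. Stub1, which encodes the ubiquitin ligase CHIP that marks chaperone clients for degradation, had a log2 fold change of 0.46 (adjusted p = 0.0836 from edgeR and called by DESeq2), and all TET1 KO livers lay above the WT livers at 54.7 to 68.0 against 39.8 to 50.7 CPM. Bag5 lay the other way, at -0.46 (adjusted p = 0.111), with 9.39 to 11.9 CPM in TET1 KO and 12.6 to 16.3 CPM in WT livers. In the list of other cytosolic HSP70 and J-domain genes, 13 of 14 could be tested and the ribosome-associated Dnajc2 had the smallest p (log2 fold change 0.48, adjusted p = 0.0972), followed by Dnajb6 at 0.32 (adjusted p = 0.182). Only 3 of 6 other small heat shock genes could be tested, and their log2 fold changes were 0.05 to 0.37, with Hspb6 highest (adjusted p = 0.211) and Cryab at 0.15 (adjusted p = 0.688).

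The cytosolic chaperonin and the prefoldin that delivers actin and tubulin to it were read as a list of 14 subunits. Of 6 prefoldin subunits 5 were above 0, highest for Pfdn6 at 0.85 (SE 0.19, adjusted p = 0.0508, edgeR), which measured 41.3, 29.9 and 37.4 CPM in WT and 86.7, 59.2, 63.7 and 50.3 CPM in TET1 KO livers, followed by Pfdn2 at 0.43 (adjusted p = 0.117) and Pfdn5 at 0.42 (adjusted p = 0.0897). The sixth, Vbp1, stood at -0.62 (adjusted p = 0.147). The 8 CCT subunits lay between -0.34 and 0.16, with 4 on either side of 0. Prefoldin transcripts are short, with exon lengths of 1077 to 2520 bases, against 1599 to 5030 bases for the CCT subunits. With values centred within length classes, the log2 difference was 0.79 for Pfdn6, 0.41 for Pfdn2 and 0.39 for Pfdn5, and the part of length was not tested further.

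Among 15 mitochondrial chaperones and proteases besides Hspd1, 10 were below 0 and the median log2 fold change was -0.21. Clpx and Clpp, the unfoldase and the peptidase of one protease, stood at -0.75 (adjusted p = 0.0730) and 0.53 (adjusted p = 0.0811) in edgeR. Neither overlapped between the genotypes, and DESeq2 called both. The mitochondrial HSP70 gene Hspa9 stood at -0.46 (adjusted p = 0.193). Endoplasmic reticulum chaperones had a median of -0.13 over 15 genes, with Hspa5, the HSP70 of that organelle, at -0.46 (adjusted p = 0.2998), the lectin chaperone Canx at -0.51 (adjusted p = 0.187) and the J-domain gene Dnajb9 at -1.11 (adjusted p = 0.0885).

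The transcript of the regulator Hsf1 measured 12.9, 9.16 and 12.8 CPM in WT and 20.1, 14.2, 15.5 and 12.7 CPM in TET1 KO livers. The difference was 0.43 on the log2 scale (SE 0.19, adjusted p = 0.193, edgeR), and TET1 KO replicate 4 lay within the WT range. Hsf4, a related factor, stood at 0.79 (adjusted p = 0.143) with groups that overlapped. Over 20 other genes known to be induced through HSF1 the median was -0.13, and 13 of them were below 0. Hspe1, which encodes HSP10, was the highest of these at 0.39. Hmox1, which degrades heme and also answers to oxidative stress, was the lowest at -0.83 (adjusted p = 0.0965), with 18.8 to 22.5 CPM in WT and 6.26 to 16.3 CPM in TET1 KO livers. The cold-inducible RNA-binding genes Cirbp and Rbm3 stood at 0.30 and 0.20 (adjusted p values of 0.409 and 0.522). Immediate early genes, which rise quickly with handling of tissue, had a median of 0.23 over 15 tested genes, with Nr4a1 at 0.96 (adjusted p = 0.101) and Jun at -0.60 (adjusted p = 0.0888).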

How the data were processed

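Liver RNA of 3 WT and 4 TET1 KO mice was analysed, grouped by the sample labels. The authors deposited raw counts per gene and mouse. According to the submitters' processing notes, reads were trimmed with Trimmomatic 0.36, GSNAP and featureCounts 1.5.3 were used, and the build was GRCm38. The library kit was strand-specific, the strand setting of the counting is not given in the sources used here, and the labels name both poly(A) selection and rRNA depletion without saying which was used. Tables were joined by Ensembl identifier, since 26 symbols in the table of TET1 KO replicate 1 had become dates, and 5 repeated entries were dropped. The genotypes were compared with edgeR 4.0.16 in R 4.3.3 (filterByExpr, TMM, quasi-likelihood test without covariates, Benjamini-Hochberg adjustment over 14754 genes, threshold 0.05). The procedure was tested on simulated counts. DESeq2 1.42.0 was the alternative test. TMM factors were applied to CPM, and 2 counts were added as a prior before taking log2. For ratios and single values, exact two-sided permutation tests over the livers were used. The labels number the livers as replicates without naming animals, so p-values measure the spread between these samples.

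The chaperones and the gene lists were chosen with earlier results of these data known. Genes named beside the 10 chaperones are the 5 nearest to Hsp90aa1, relatives used in ratios, Hsf1, Tet1 and, in each list, the 2 genes with the smallest p. The comparison anchored on Hsph1, the values centred by length, and the remaining list genes named were chosen after values had been seen. Exon lengths came from GENCODE M1 and were found for 13469 tested genes (91.3%). Positions and promoters are those of RefSeq for GRCm38.p6. The hepatocyte marker Tf was not found under that symbol. Alternatives were DESeq2, RLE size factors, library size only, an unfiltered table, a minimum of 10 counts per library, robust dispersions, a replicate block, summed Hspa1a and Hspa1b, and leaving out each liver. Plots were made in Python 3.11.15 (matplotlib 3.10.9).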

Additional observations from a re-analysis of the deposited data

Results flagged for a closer look

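Among the 4 TET1 KO livers, the gap between the most distant liver and its nearest neighbour was compared with the range of the group (Dixon's rule at the 95% level) for 55 genes and ratios, of which chance alone would flag about 2.8. The gap exceeded the limit for 5 genes. None of these was among the 10 chaperones, of which Hsp90aa1 fell just short of the limit. TET1 KO replicate 1 was the distant liver for Gm8430 (0.924), Hnrnph3 (0.889) and Ankhd1 (0.831), each higher there and each among the genes nearest to Hsp90aa1, and for Clpx (0.866), which was lower there. TET1 KO replicate 4 was the distant liver for Rbm3 (0.837), where it was lower. For the unflagged Hsp90aa1 the distant liver was TET1 KO replicate 1, at 456 CPM against 274 to 305 CPM in the other TET1 KO livers. The lack of a flag therefore does not set Hsp90aa1 apart from the flagged genes nearest to it. The genes nearest to Hsp90aa1 were chosen for a profile like its own, so their flags are not independent of each other.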

How the results depend on the processing

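None of the alternatives run changed the direction of the difference for Hsp90aa1, Hsp90ab1, Hspa8, Dnaja1 or Hspd1. With DESeq2 the calls rose to 628 genes higher and 698 lower, with 1 of the 10 chaperones (Hsp90aa1, log2 fold change 0.64, adjusted p = 0.0281) and 7 list genes. Scaling by library size only gave 312 lower genes, no filter on low counts gave 245 higher and 347 lower genes, and robust dispersions and the unfiltered fit each called 1 list gene, Pfdn6. Hsph1 and Dnajb1 lay at 0 and changed sign without any call. Hsph1 stood at -0.023 with DESeq2, -0.011 with RLE factors, -0.076 with library size only, -0.022 without a filter and -0.0024 with at least 10 counts per library. Dnajb1 stood at -0.016, -0.0070, -0.079 and -0.018 under the first 4 of these. Hsp90b1 was at -0.050 and Stip1 at -0.059 with library size only, a scaling that moved the median of all genes by -0.09. The cause of these changes was not tested.

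Leaving out 1 liver at a time gave 16 to 427 higher genes and 22 to 464 lower genes, fewest without WT replicate 2 and most without TET1 KO replicate 4, in each case 0 of the 10 chaperones, and 0 to 2 list genes. The log2 fold change ran from -0.78 to 0.012 for Hspa1a, -0.18 to 0.40 for Hspa1b, -0.33 to 0.16 for Hsph1, -0.13 to 0.14 for Dnajb1, -0.039 to 0.60 for Hspb1, -0.12 to 0.20 for Hsp90b1, -0.039 to 0.065 for Stip1, -0.32 to 0.077 for Gm38303 and -0.42 to 0.084 for Pak1. The lowest values came without TET1 KO replicate 4, except for Hspb1 (WT replicate 2) and Hsp90b1 (TET1 KO replicate 2). Of the other genes outside the 10 for which this was run, values moved by over 1.5 times for Ankhd1 (0.37 without TET1 KO replicate 1), Hspa5 (-0.27 without TET1 KO replicate 1), Canx (-0.29 without WT replicate 2), Hspa9 (-0.22 without WT replicate 2), Cdc37 (-0.10 without WT replicate 2 and -0.42 without TET1 KO replicate 4), Ahsa1 (-0.011 without TET1 KO replicate 1 and -0.25 without TET1 KO replicate 4), Hsf1 (0.27 without WT replicate 2), Rbm3 (0.038 without WT replicate 2 and 0.32 without TET1 KO replicate 4), Cryab (0.020 without WT replicate 3 and 0.31 without WT replicate 1), Cirbp (0.16 without TET1 KO replicate 2 and 0.47 without WT replicate 1) and Evpl (-0.48 without WT replicate 1 and -0.10 without WT replicate 2), besides Bag3.

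Livers with the same replicate number did not deviate together (correlations of 0.209, -0.123 and -0.0964 for numbers 1 to 3), and 1 of 3 numbers correlated best with its own partner, so the numbers were not taken as a pairing. With the number as a replicate block, 670 genes were higher and 656 lower, 1 chaperone was called (Hsp90aa1, 0.70, adjusted p = 0.0492) and 12 list genes were called, while Hspa1b stood at -0.19, Hsph1 at -0.31, Dnajb1 at -0.11 and Stip1 at -0.037 without a call. TET1 KO replicate 4 has no partner and does not enter this comparison.

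With 3 and 4 livers, the widest 95% interval of a chaperone ran from -1.37 to 0.73 on the log2 scale, for Hspa1a, which had 8 to 76 counts per library.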
